A study of Mus musculus with 24 samples.

Results

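Skeletal muscle of high fat-fed mice of the omega-3 lineage (HFD_O3) was compared with that of low fat-fed mice of the control lineage (STD_Cont). All 8 HFD_O3 arrays and all 8 STD_Cont arrays of the series entered the comparison, chosen by the diet and lineage labels alone, which makes 16 of 24 arrays. The remaining 8 arrays are of high fat-fed mice of the control lineage (HFD_Cont), and they are used below for the spread between arrays and for values set beside the main ones. Each array holds total RNA of the muscle of 1 mouse on a one-colour Agilent design, and the series' design text gives 8 mice per group. The 2 groups compared differ in both diet and lineage, so neither of these can be told apart from the other within this comparison. The sources used here do not state what the lineage label stands for, which strain and muscle were taken, how old the mice were, their sex or how long they were fed. Levels are log2 intensities relative to the 75th percentile of the same array. Changes are HFD_O3 minus STD_Cont in those log2 units, the error after ± is the standard error from limma, and n = 8 per group throughout unless another number is given.

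Skeletal muscle is built mainly of multinucleated contractile fibres, with a dense capillary bed, connective tissue, nerve endings and fat cells between them. Muscle fibres and vessel walls both answer hormones, stretch and contraction with a rapid first wave of transcription factors, the immediate early genes, and fasting or glucocorticoids raise a separate program of protein breakdown genes through the FOXO factors and the glucocorticoid receptor. Omega-3 fatty acids are polyunsaturated fatty acids that serve as membrane lipids, as precursors of lipid mediators and as ligands of lipid-sensing receptors.

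The 4 genes of the immediate early transcription factor list that rose are introduced first, with the 250 bases before their transcription start. Other transcription factor genes that rose, among them Bcl6b and Ets1, are given further below without a sequence. The cyclic AMP response element (CRE) is a well-known control element of the immediate early class. Capitals mark the short core of that element, TGACG, or its reverse complement CGTCA. The sequences are those of RefSeq on build GRCm38.p6, written 5′ to 3′ on the gene's own strand. They lie at chr15:101266596-101266845 on the plus strand for Nr4a1, chr8:72318812-72319061 on the plus strand for Klf2, chr4:55532476-55532725 on the minus strand for Klf4 and chr5:32136222-32136471 on the plus strand for Fosl2.
Nr4a1: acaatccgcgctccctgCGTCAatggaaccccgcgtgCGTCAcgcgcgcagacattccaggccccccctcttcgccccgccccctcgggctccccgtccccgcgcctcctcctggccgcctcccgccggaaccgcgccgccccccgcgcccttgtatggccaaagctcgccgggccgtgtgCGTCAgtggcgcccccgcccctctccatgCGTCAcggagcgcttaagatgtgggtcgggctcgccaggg
Klf2: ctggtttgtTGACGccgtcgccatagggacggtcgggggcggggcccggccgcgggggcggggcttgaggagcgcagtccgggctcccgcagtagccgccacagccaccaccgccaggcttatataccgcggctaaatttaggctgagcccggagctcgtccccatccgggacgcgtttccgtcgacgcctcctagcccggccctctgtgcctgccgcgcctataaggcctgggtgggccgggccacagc
Klf4: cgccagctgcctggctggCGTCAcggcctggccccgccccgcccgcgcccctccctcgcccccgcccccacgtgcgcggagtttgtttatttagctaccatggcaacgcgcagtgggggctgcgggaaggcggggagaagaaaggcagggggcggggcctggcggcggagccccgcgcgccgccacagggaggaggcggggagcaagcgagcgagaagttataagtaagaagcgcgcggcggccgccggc
Fosl2: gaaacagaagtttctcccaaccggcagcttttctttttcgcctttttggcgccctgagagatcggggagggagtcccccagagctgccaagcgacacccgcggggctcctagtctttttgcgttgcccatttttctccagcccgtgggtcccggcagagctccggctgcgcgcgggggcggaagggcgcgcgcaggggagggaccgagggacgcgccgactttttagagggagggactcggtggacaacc
The Nr4a1 stretch held 4 such cores, which begin 233, 213, 69 and 40 bases before the start. The Klf2 and Klf4 stretches held 1 each, at 241 and 232 bases, and the Fosl2 stretch held 0. Searched on both strands over the same length, the core lay in 17.9% of the 27025 promoters of the RefSeq table and in 25.3% of the 11797 promoters of tested genes. Among genes that passed the test below, it lay in 15 of 47 promoters of genes that rose (31.9%) and in 5 of 18 of genes that fell (27.8%). The GC box, GGGCGG, lay in 54.1% of the promoters of tested genes, in 30 of 47 of genes that rose and in 8 of 18 of genes that fell. A match describes letters in this window and is not a site of binding.

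Of 19921 gene names tested, 119 passed an adjusted p of 0.05 (0.597%; 11.2% had an unadjusted p under 0.05), 81 higher in HFD_O3 (0.407%) and 38 lower (0.191%; limma, Benjamini-Hochberg over all names). The changes were modest: the median size was 0.49 on the log2 scale for both the names that rose and those that fell, and 6 rises and 2 falls were larger than 1. The median change over all names was −0.02. When arrays were scaled to their median in place of the 75th percentile, 49 names were higher and 13 lower, a larger share of rises. In 24 names every HFD_O3 array lay above every STD_Cont array (0.12% of names), and in 6 every one lay below (0.0301%). Of the 119, 20 rises and 5 falls were separated in this way. The arrays lie on 3 slides, each with 2 or 3 arrays of each group, but the groups were not balanced over the array rows of a slide. On slide 1, STD_Cont arrays 1 and 2 lay in row 1 and HFD_O3 arrays 2 and 3 in row 2. On slide 2, STD_Cont arrays 3, 4 and 5 lay in row 2 and HFD_O3 arrays 4 and 5 in row 1. Of the calls, 80 of 81 rises and 38 of 38 falls had the same sign within all 3 slides (27.3% of all names did). These names were chosen by a test on the same arrays, which largely fixes their sign on each slide, so the count is a description.

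**Figure D1:**
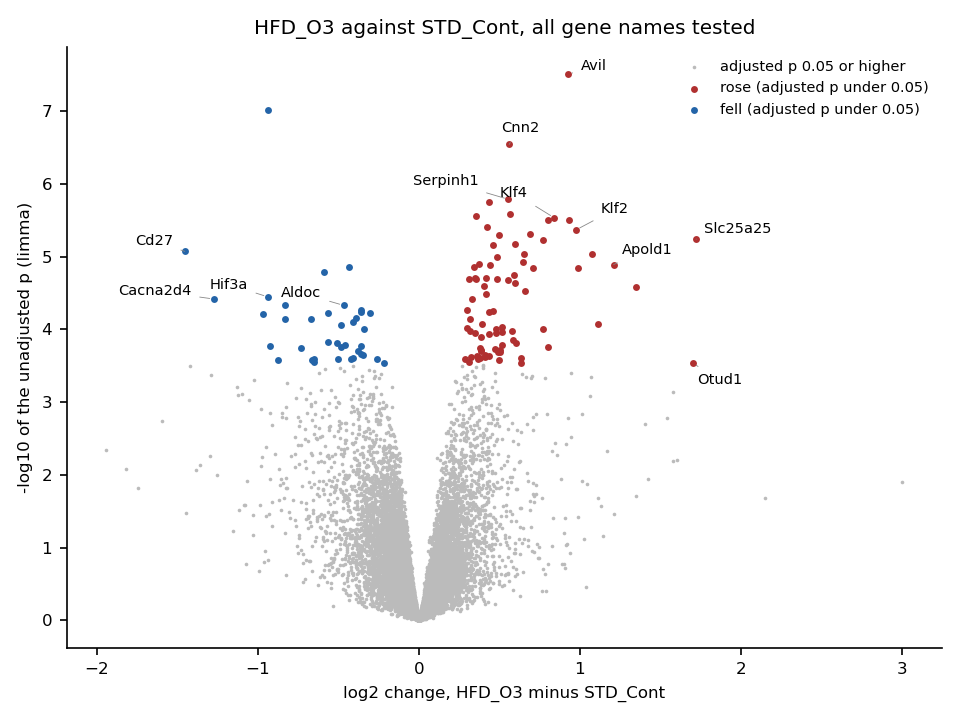
Each point is 1 of 19921 gene names, with the log2 change of HFD_O3 minus STD_Cont on the x axis and −log10 of limma's unadjusted p on the y axis; red points rose and blue points fell at an adjusted p under 0.05. Avil and Cnn2 have the smallest p values among the rises, and Slc25a25 and Otud1 lie farthest to the right of those that passed.

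The immediate early transcription factors moved only upward among those that passed. Of 27 measured members of this list, 4 rose, 0 fell and 23 did not pass, with a list median of 0.13. The 4 were Klf2, Klf4, Nr4a1 and Fosl2. Over all names 0.407% rose and 0.191% fell, shares to be set beside this count and those of the lists below. The lists were chosen with earlier results of these data known, and no set test was run. Klf2, a zinc finger factor that in vessel walls is induced by blood flow, was between 3.51 and 4.34 on the HFD_O3 arrays with a median of 3.92, and between 2.54 and 3.38 on the STD_Cont arrays with a median of 2.90. The groups did not overlap. The change was 0.98 ± 0.16 (adjusted p = 0.00709), about 1.97-fold, and 1.18, 1.11 and 0.67 within slides 1, 2 and 3.

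Klf4, a related factor of vessel, skin and stem cells, ran from 4.62 to 5.02 with a median of 4.76 on the HFD_O3 arrays, and from 3.41 to 4.60 with a median of 3.82 on the STD_Cont arrays. These groups too were fully apart, although the highest STD_Cont array lay just under the lowest HFD_O3 array. The change was 0.84 ± 0.14 (adjusted p = 0.00635). Klf2 and Klf4 were the 2 of 13 measured Kruppel-like factors that passed, while Klf9, Klf10 and Klf15 had changes of −0.33, −0.43 and −0.31 that did not pass (adjusted p = 0.144, 0.377 and 0.412).

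Nr4a1, an orphan nuclear receptor induced in muscle by adrenergic signals and exercise, ran from 5.83 to 7.10 with a median of 6.64 in HFD_O3 and from 5.65 to 6.22 with a median of 5.95 in STD_Cont. On 7 of 8 HFD_O3 arrays the level lay above every STD_Cont array. The change was 0.66 ± 0.13 (adjusted p = 0.014), and by slide it was 0.95, 0.77 and 0.10, so that slide 3 hardly showed it. Fosl2, which encodes the AP-1 subunit Fra-2, ran from 1.0 to 1.80 (median 1.31) in HFD_O3 and from 0.71 to 1.23 (median 0.88) in STD_Cont, a change of 0.44 ± 0.09 (adjusted p = 0.0312). Its highest value was that of HFD_O3 array 7, and 18 of 24 fits with 1 array left out still called it.

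Other immediate early genes did not pass. Atf3, a stress-induced factor, had a change of 1.42 ± 0.52 (adjusted p = 0.258), Csrnp1 of 1.06 ± 0.28 (adjusted p = 0.0836) and Nr4a2 of 0.71 ± 0.28 (adjusted p = 0.305). The classical members Fos (0.38 ± 0.44), Egr1 (0.13 ± 0.45) and Junb lay within their error. These 6, and the other genes given below with values that did not pass, include members of the lists chosen after their values were seen.

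**Figure D2:**
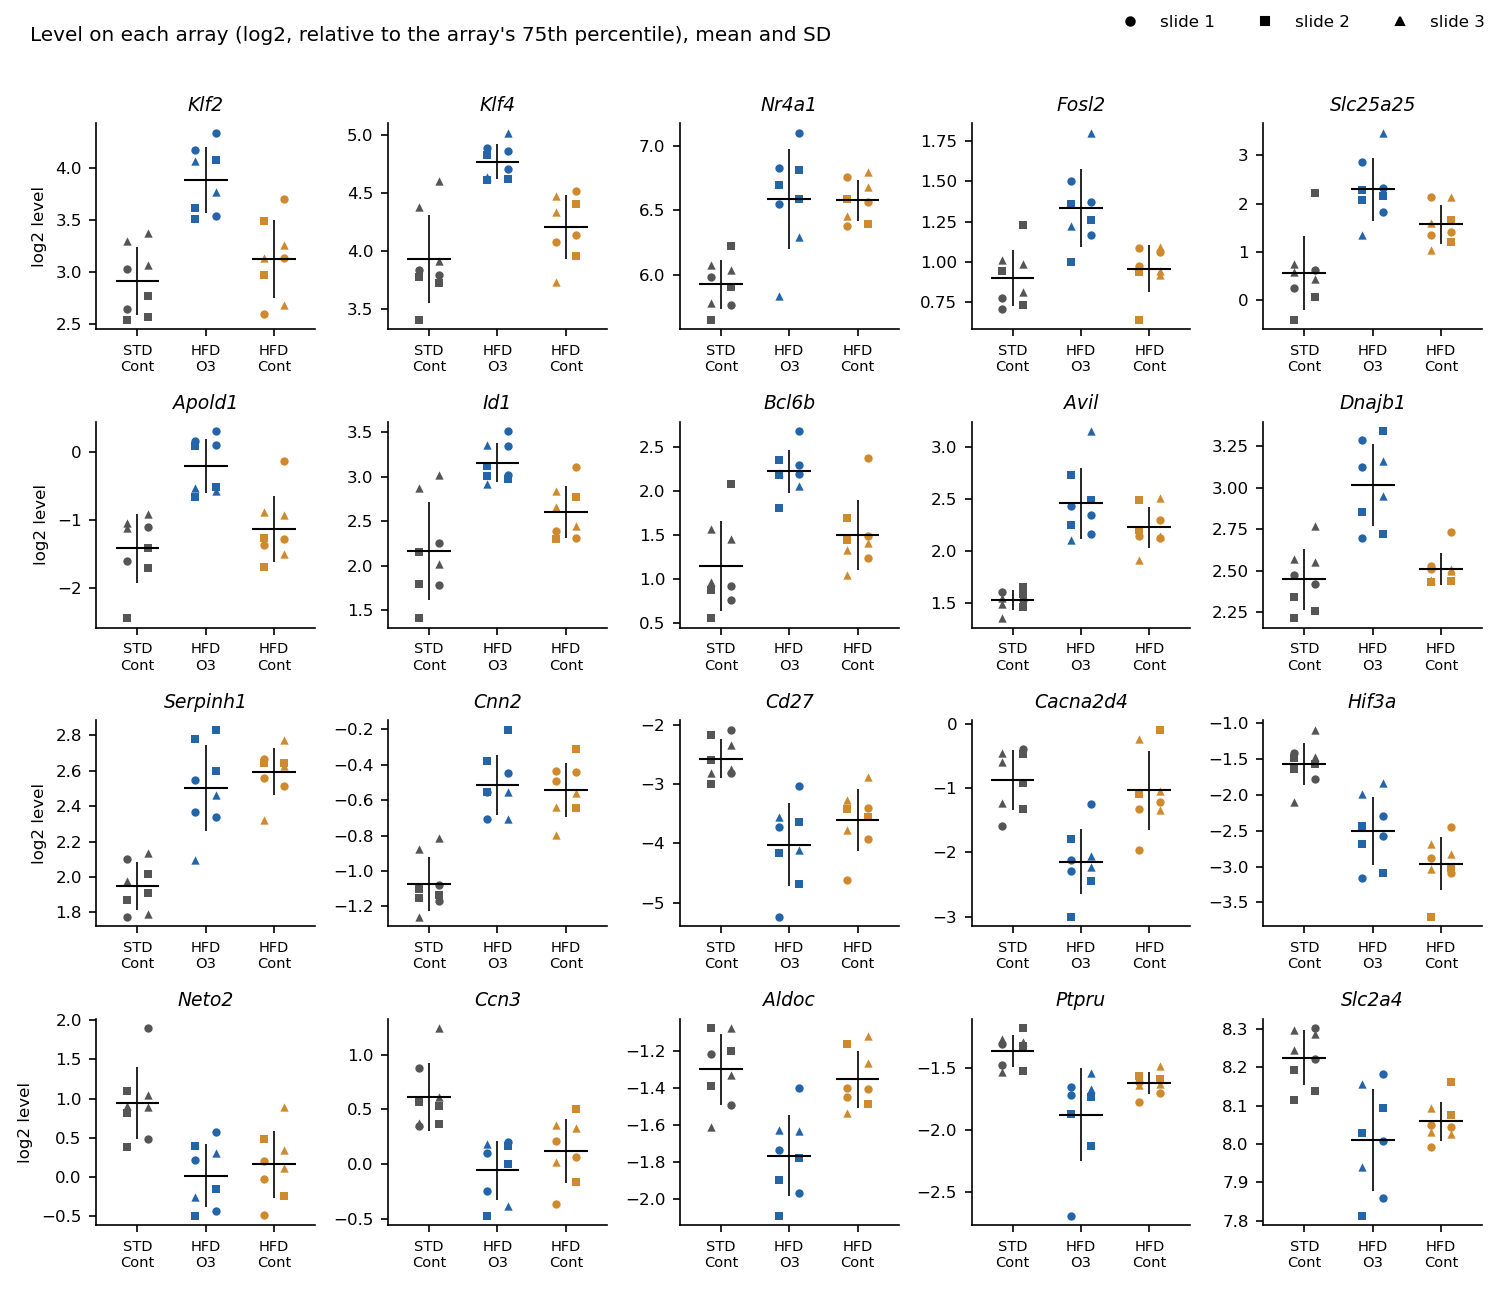
Log2 level on each array relative to that array's 75th percentile, for 20 named genes in the 3 groups of 8, with the horizontal bar at the group mean, the vertical bar at 1 SD to each side and the symbol giving the slide. Klf2, Klf4, Apold1, Avil and Cnn2 show HFD_O3 arrays wholly above the STD_Cont arrays, and Cd27, Ccn3 and, only just, Ptpru wholly below.

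Of 22 measured genes of endothelial activation and angiogenesis 2 rose and 0 fell. Apold1, an endothelial gene induced early in response to stimuli, ran from −0.66 to 0.30 with a median of −0.22 in HFD_O3 and from −2.44 to −0.91 with a median of −1.27 in STD_Cont. No HFD_O3 array reached down into the STD_Cont range. The change was 1.21 ± 0.22 (adjusted p = 0.00963), and 1.53, 1.48 and 0.48 by slide. Nos3, the endothelial nitric oxide synthase, had a smaller change, with 2.25 to 2.62 (median 2.46) in HFD_O3 against 1.98 to 2.25 (median 2.14) in STD_Cont and a change of 0.31 ± 0.06 (adjusted p = 0.011). By slide it was 0.28, 0.50 and 0.12, weakest on slide 3. The list median was 0.14. Kdr, the main VEGF receptor, had a change of 0.40 ± 0.10 that did not pass (adjusted p = 0.0777), and Edn1, the precursor of endothelin, one of −0.52 ± 0.16 (adjusted p = 0.143).

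Id1, an inhibitor of basic helix-loop-helix factors and a direct target of BMP signals, ran from 2.91 to 3.51 with a median of 3.07 in HFD_O3 and from 1.41 to 3.02 with a median of 2.09 in STD_Cont. A single STD_Cont array reached into the HFD_O3 range, and the next highest lay just under it. The change was 0.99 ± 0.18 (adjusted p = 0.00963), and Id1 was the 1 of 18 measured Id and BMP-SMAD genes to pass. Its relative Id3 had a change of 0.46 ± 0.13 (adjusted p = 0.113). Bcl6b, a transcriptional repressor found in endothelium, ran from 1.81 to 2.68 (median 2.20) against 0.55 to 2.08 (median 0.94), a change of 1.08 ± 0.19 (adjusted p = 0.00884). Btnl9, a butyrophilin-like gene found in capillary endothelium, had 0.77 ± 0.16 (adjusted p = 0.0289).

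Among rises outside the naming rule, taken up after their values were seen because they are known from vessels or from their signals, were Epha2, an ephrin receptor (0.52 ± 0.11), Dll1, a Notch ligand (0.60 ± 0.10), Ets1, a transcription factor (0.39 ± 0.08), Tm4sf1 (0.35 ± 0.08) and Lrrc32, which binds latent TGF-β (0.42 ± 0.07). Endothelial marker genes held no call: 18 of 18 were above background on all 16 arrays and 0 passed in either direction. Their median change was 0.12, with 14 changes above 0 and 4 below. The mean level of those markers, centred gene by gene, ran from −0.05 to 0.23 on the HFD_O3 arrays and from −0.23 to 0.20 on the STD_Cont arrays. Pecam1, Cdh5 and Vwf had changes of 0.01, 0.12 and 0.12, and Kdr had the largest of the list, 0.40. The part of endothelial content in these rises was not tested, and in bulk muscle a different number of cells of a type cannot be told apart from a different amount of RNA per cell.

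The largest rise of a named gene was that of Slc25a25, which encodes a calcium-sensitive carrier that exchanges ATP-magnesium for phosphate across the inner mitochondrial membrane. It ran from 1.35 to 3.47 with a median of 2.22 in HFD_O3 and from −0.40 to 2.22 with a median of 0.52 in STD_Cont. All 8 HFD_O3 arrays lay above the STD_Cont median, and STD_Cont array 5, at 2.22, was the single control array inside the HFD_O3 range. The change was 1.72 ± 0.30 (adjusted p = 0.00741), about 3.3-fold, and 1.89, 1.55 and 1.81 by slide. Both other probes of the gene gave 1.87, and both passed. The other 34 measured mitochondrial carriers did not pass, and the list's median was −0.02.

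Otud1, a deubiquitinase, had a change of similar size, 1.70 ± 0.40, with a much weaker test (adjusted p = 0.0489). It ran from −1.73 to 1.26 (median −0.35) in HFD_O3 and from −2.64 to −0.87 (median −2.13) in STD_Cont. The change was 2.25 and 2.52 on slides 1 and 2 and 0.22 on slide 3, and 5 of 24 fits with 1 array left out kept the call. C2cd4a, a nuclear calcium-lipid binding domain protein, rose by 1.11 ± 0.23 (adjusted p = 0.0267), with 5 of 8 STD_Cont arrays and 8 of 8 HFD_O3 arrays above background. The filter, which asked for 6 of 8 arrays of a group above background, let C2cd4a in only through the high fat groups, so its rise is a description. Coq10b, which helps coenzyme Q function in mitochondria, rose by 0.60 ± 0.13 (adjusted p = 0.0386) and was taken up after its values were seen. Of its 3 other probes, 2 passed, at 0.56 and 0.99, and 1 gave 0.02.

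Avil, an actin-binding protein of the gelsolin and villin family, had the smallest p of all names. It ran from 2.11 to 3.15 with a median of 2.39 in HFD_O3 and from 1.35 to 1.66 with a median of 1.54 in STD_Cont. The STD_Cont arrays lay within a narrow band and every HFD_O3 array above it. The change was 0.93 ± 0.11 (adjusted p = 0.000624), and its second probe gave 1.1 and passed too. Cnn2, the actin-binding protein calponin 2, was likewise apart, with −0.71 to −0.20 (median −0.55) against −1.26 to −0.81 (median −1.12) and a change of 0.56 ± 0.08 (adjusted p = 0.00191). Nedd9, a scaffold protein of focal adhesions, rose by 0.80 ± 0.18 (adjusted p = 0.0408), and Tpm4, a non-muscle tropomyosin, by 0.38 ± 0.09 (adjusted p = 0.0421). Tpm4 was taken up after its values were seen, and its probe shares a 26-base run with the probe of another name that also passed.

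Of 30 measured heat shock proteins and co-chaperones, 2 rose and 0 fell, with a median of 0.04. Both belong to the DnaJ class of co-chaperones, which bring substrates to Hsp70. Dnajb1 ran from 2.70 to 3.34 (median 3.04) in HFD_O3 and from 2.21 to 2.77 (median 2.45) in STD_Cont, a change of 0.57 ± 0.09 (adjusted p = 0.00635). Dnaja1 ran from 3.95 to 4.48 (median 4.08) against 3.66 to 4.0 (median 3.76), a change of 0.33 ± 0.07 (adjusted p = 0.0167). Its 2 other probes gave 0.21 and 0.17 and did not pass. The Hsp70 genes Hspa1b and Hspa1a, which are near-identical copies that probes may not separate, had changes of 0.91 ± 0.41 and 0.68 ± 0.39 that did not pass.

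Serpinh1, the collagen chaperone Hsp47, ran from 2.10 to 2.83 (median 2.50) in HFD_O3 and from 1.77 to 2.14 (median 1.94) in STD_Cont, with 7 of 8 HFD_O3 arrays above every STD_Cont array. The change was 0.56 ± 0.09 (adjusted p = 0.00635). It was the 1 of 47 measured collagen and matrix genes that passed, and the list's median was 0.03, with Col3a1 at 0.27 ± 0.16 and Lox, a collagen crosslinking enzyme, at −0.40 ± 0.21. Slc39a10, a zinc importer, rose by 0.43 ± 0.07 (adjusted p = 0.00635) with no overlap between groups. Noxred1, an oxidoreductase-like gene, rose by 0.80 ± 0.13 (adjusted p = 0.00635), also without overlap, and Tnfrsf25, a receptor of the tumour necrosis factor family, by 0.77 ± 0.13 (adjusted p = 0.00741). Tcim, a regulator of the β-catenin pathway, rose by 0.71 ± 0.13 (adjusted p = 0.00963).

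Of 38 falls, 9 were called in all 24 fits with 1 array left out, and of 81 rises 42 were. Cd27, a receptor of the tumour necrosis factor family known from lymphocytes, had the largest fall. It ran from −5.24 to −3.02 with a median of −3.92 in HFD_O3 and from −2.99 to −2.08 with a median of −2.66 in STD_Cont. Every HFD_O3 array was below every STD_Cont array, and 4 of 8 HFD_O3 arrays were above background against 8 of 8 STD_Cont arrays. The filter asked for 6 of 8 arrays of a group above background, and Cd27 met it only in STD_Cont, where it is high. Its fall and its separation are therefore a description. The change was −1.45 ± 0.26 (adjusted p = 0.00884), and −1.55, −1.58 and −1.21 by slide. Of 14 lymphocyte markers 7 were measured, 0 passed and their median change was −0.05, while Cd3g, Cd8a, Cd79a, Ighm, Trac, Nkg7 and Lck were not above background on enough arrays to be tested.

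Cacna2d4, an auxiliary subunit of voltage-gated calcium channels, ran from −3.0 to −1.25 with a median of −2.17 in HFD_O3 and from −1.58 to −0.40 with a median of −0.76 in STD_Cont. The groups overlapped by a single HFD_O3 array. The change was −1.27 ± 0.25 (adjusted p = 0.0167), and its second probe gave −1.33 and passed. It was the 1 of 30 measured calcium handling genes to pass. Its relative Cacna2d1, the subunit that is abundant in skeletal muscle, had a change of 0.01 ± 0.05, and the ryanodine receptor gene Ryr3 one of −1.09 ± 0.46 (adjusted p = 0.352).

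Further falls were those of Neto2, an auxiliary subunit of kainate receptors (−0.92 ± 0.21, adjusted p = 0.04), Kcnab1, a potassium channel subunit (−0.87 ± 0.20, adjusted p = 0.0463), and Gnal, a stimulatory G protein subunit (−0.73 ± 0.17, adjusted p = 0.0415). The 2 other probes of Neto2 gave −0.83 and −0.99, of which the second passed. Kcnab1 fell by 1.32 on slide 1 and by 1.09 on slide 2, and its value on slide 3 was −0.22. Its call was kept in 8 of 24 fits with 1 array left out. Ccn3, a secreted matrix-associated regulator, ran from −0.47 to 0.21 (median 0.05) in HFD_O3 and from 0.35 to 1.24 (median 0.55) in STD_Cont, fully apart, with a change of −0.67 ± 0.14 (adjusted p = 0.0239). Ptpru, a receptor tyrosine phosphatase, had −0.51 ± 0.11 (adjusted p = 0.0386), its lowest HFD_O3 array standing at −2.69. Its groups were only just apart, with the highest HFD_O3 array at −1.5418 and the lowest STD_Cont array at −1.5395. The change on slide 3 was −0.24, and 15 of 24 fits with 1 array left out kept the call.

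Msrb1, a methionine sulfoxide reductase, fell by 0.41 ± 0.09 (adjusted p = 0.0261), and Mgst1, a microsomal glutathione transferase, by 0.42 ± 0.10 (adjusted p = 0.0463). Galnt15, a glycosyltransferase of mucin-type sugars, fell by 0.65 ± 0.15 (adjusted p = 0.0463), and Igf2os, an antisense RNA of the Igf2 locus, by 0.57 ± 0.13 (adjusted p = 0.0386). Slbp, which binds the stem-loop of histone transcripts, fell by 0.46 ± 0.10 (adjusted p = 0.04) on its brightest probe, while its 2 other probes gave −0.02 and 0.08. Of the unannotated names that fell, ENSMUST00000071522 had the smallest p, with −0.39 to 0.70 (median 0.14) against 0.90 to 1.32 (median 1.02) and a change of −0.94 ± 0.12 (adjusted p = 0.000964). It was followed by 4933440N22Rik (−0.43 ± 0.08) and 4930431P19Rik (−0.59 ± 0.11).

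Of 32 measured genes of insulin signalling and glucose use, 2 fell and 0 rose, with a median of −0.04. Aldoc, an aldolase isoform that is minor in muscle, ran from −2.09 to −1.40 (median −1.76) in HFD_O3 and from −1.61 to −1.08 (median −1.27) in STD_Cont, a change of −0.47 ± 0.09 (adjusted p = 0.0195) that every fit with 1 array left out kept. Slc2a4, the insulin-responsive glucose transporter GLUT4, ran from 7.81 to 8.18 (median 8.02) against 8.11 to 8.30 (median 8.23). The groups overlapped by 2 HFD_O3 arrays, and the change was small, −0.21 ± 0.05 (adjusted p = 0.0489), with 3 of 24 fits keeping the call and a second probe at −0.09. Irs2 and Irs1, the insulin receptor substrates, had changes of 0.55 ± 0.15 and 0.33 ± 0.14 that did not pass.

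Hif3a, a hypoxia-inducible factor subunit that glucocorticoids also induce, ran from −3.15 to −1.83 (median −2.50) against −2.10 to −1.09 (median −1.52). The change was −0.94 ± 0.18 (adjusted p = 0.0162), and −1.08, −1.18 and −0.35 by slide, weakest on slide 3. Hif3a was the 1 of 24 measured hypoxia genes to pass.

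Glucocorticoid-induced and protein breakdown genes had 1 call between them on all arrays. Of 25 measured glucocorticoid-induced genes, 1 fell (Hif3a), 0 rose and the median was −0.33, with 19 of 25 changes below 0. Of 30 measured genes of atrophy and proteolysis, 0 passed and the median was −0.14, with 26 of 30 below 0. By slide the medians were −0.39, −0.52 and 0.18 for the first list and −0.29, −0.26 and 0.12 for the second, so that both were above 0 on slide 3, which holds HFD_O3 array 7. The mean level of the first list, centred gene by gene, ran from −0.40 to 0.29 on 7 HFD_O3 arrays and stood at 0.85 on HFD_O3 array 7, against −0.03 to 0.63 on the STD_Cont arrays. The second list likewise stood at 0.67 on array 7, with −0.28 to 0.16 on the other 7 and 0.02 to 0.44 on the STD_Cont arrays. On both lists array 7 was thus higher than any STD_Cont array, while the other 7 HFD_O3 arrays reached below the STD_Cont range and overlapped its lower part.

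Array 7 is singled out because its removal changed the count of calls more than that of any other array. That choice rests on these same data, and array 7 was the highest array on both lists. Its removal therefore favours falls in them, and the p-values without it, here and in the next paragraph, are a description. Without array 7, 9 of 25 glucocorticoid-induced genes fell (median −0.43) and 7 of 30 atrophy genes fell (median −0.25). Of all names, 125 were then higher (0.627%) and 218 lower (1.09%). Among the atrophy genes, Depp1, a FOXO target, fell by 2.32 ± 0.53 (adjusted p = 0.0273), and Trim63, the muscle ubiquitin ligase MuRF1, by 0.97 ± 0.20 (adjusted p = 0.0165). Trim63 stood at 8.61 on array 7, and from 6.25 to 7.56 on the other 7 HFD_O3 arrays. Foxo1 and Foxo3, the transcription factors of that program, fell by 0.54 ± 0.13 and 0.37 ± 0.08.

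Of the glucocorticoid-induced genes without array 7, Cebpd, an acute phase transcription factor, fell by 1.32 ± 0.30 (adjusted p = 0.028). Arrdc2, an arrestin-domain gene, fell by 1.28 ± 0.26 (adjusted p = 0.0182) and Fkbp5, a co-chaperone of the glucocorticoid receptor, by 1.17 ± 0.30 (adjusted p = 0.0456). Tsc22d3, which encodes GILZ, fell by 0.33 ± 0.07 (adjusted p = 0.0192). With array 7 kept, none of these 4 passed, at adjusted p of 0.385, 0.336, 0.189 and 0.202. All 119 names called on all arrays were still called without array 7, and its level on the Klf2, Klf4 and Nr4a1 probes lay within or above the range of its group.

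**Figure D3:**
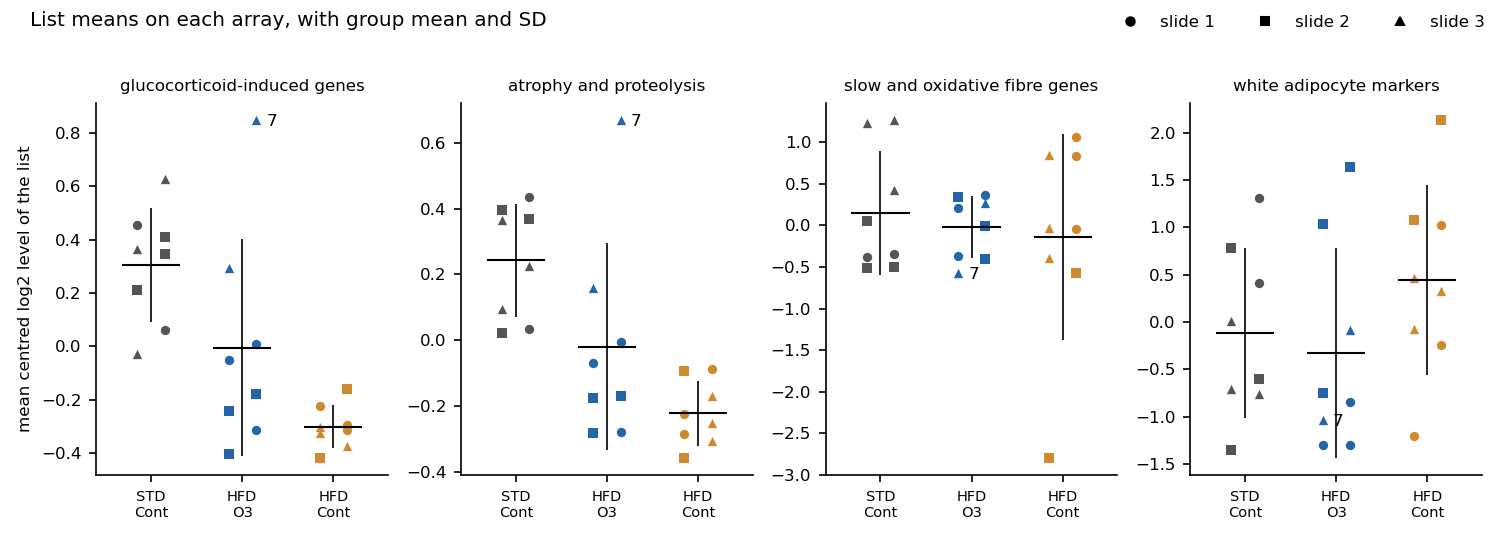
Mean centred log2 level of 4 gene lists on each array (y axis) in the 3 groups of 8, with group mean and SD and HFD_O3 array 7 numbered. Array 7 is the highest array of all on the glucocorticoid-induced and atrophy lists, and white adipocyte markers spread over more than 2 log2 units within each group.

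Genes that handle fat, the nutrient that the diets differ in, had 0 calls in their 4 lists. Of 43 measured genes of fatty acid uptake and oxidation, 0 passed and the median was 0.06, with 26 above 0. Decr1, the dienoyl-CoA reductase that is needed to oxidise polyunsaturated fatty acids, ran from 6.42 to 6.78 (median 6.65) against 6.19 to 6.54 (median 6.31), with a change of 0.30 ± 0.07 that missed the threshold (adjusted p = 0.0604). Ech1, another enzyme of that auxiliary route, had 0.40 ± 0.11 (adjusted p = 0.0849), Hadha and Hadhb of the trifunctional protein had 0.28 and 0.23, and Pdk4, a brake on glucose oxidation, had −0.21 ± 0.10. Of 27 measured genes of polyunsaturated fatty acid and eicosanoid metabolism, 0 passed and the median was −0.03. The desaturases Fads1 and Fads2 had −0.36 ± 0.26 and −0.09 ± 0.13, and the soluble epoxide hydrolase Ephx2 had 0.26 ± 0.11 (adjusted p = 0.356). The free fatty acid receptors Ffar1 and Ffar4, Elovl2, Ptgs2 and Alox15 were not above background on enough arrays to be tested.

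Fatty acid and cholesterol synthesis (24 measured, median −0.07) and lipid droplet genes (21 measured, median −0.13) had 0 calls as well. Acaca, the acetyl-CoA carboxylase of fatty acid synthesis, had −0.24 ± 0.06 (adjusted p = 0.0597), and Scd2, a stearoyl-CoA desaturase, −0.56 ± 0.16 (adjusted p = 0.108). Plin4, a lipid droplet coat protein of muscle, had −0.48 ± 0.15 (adjusted p = 0.174), and Mgll, monoglyceride lipase, 0.29 ± 0.09 (adjusted p = 0.151). Fabp5, a fatty acid binding protein that is in none of these lists, rose by 0.51 ± 0.11 (adjusted p = 0.03), with a probe that shares a 50-base run with that of another called name, and it was taken up after its values were seen.

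**Figure D4:**
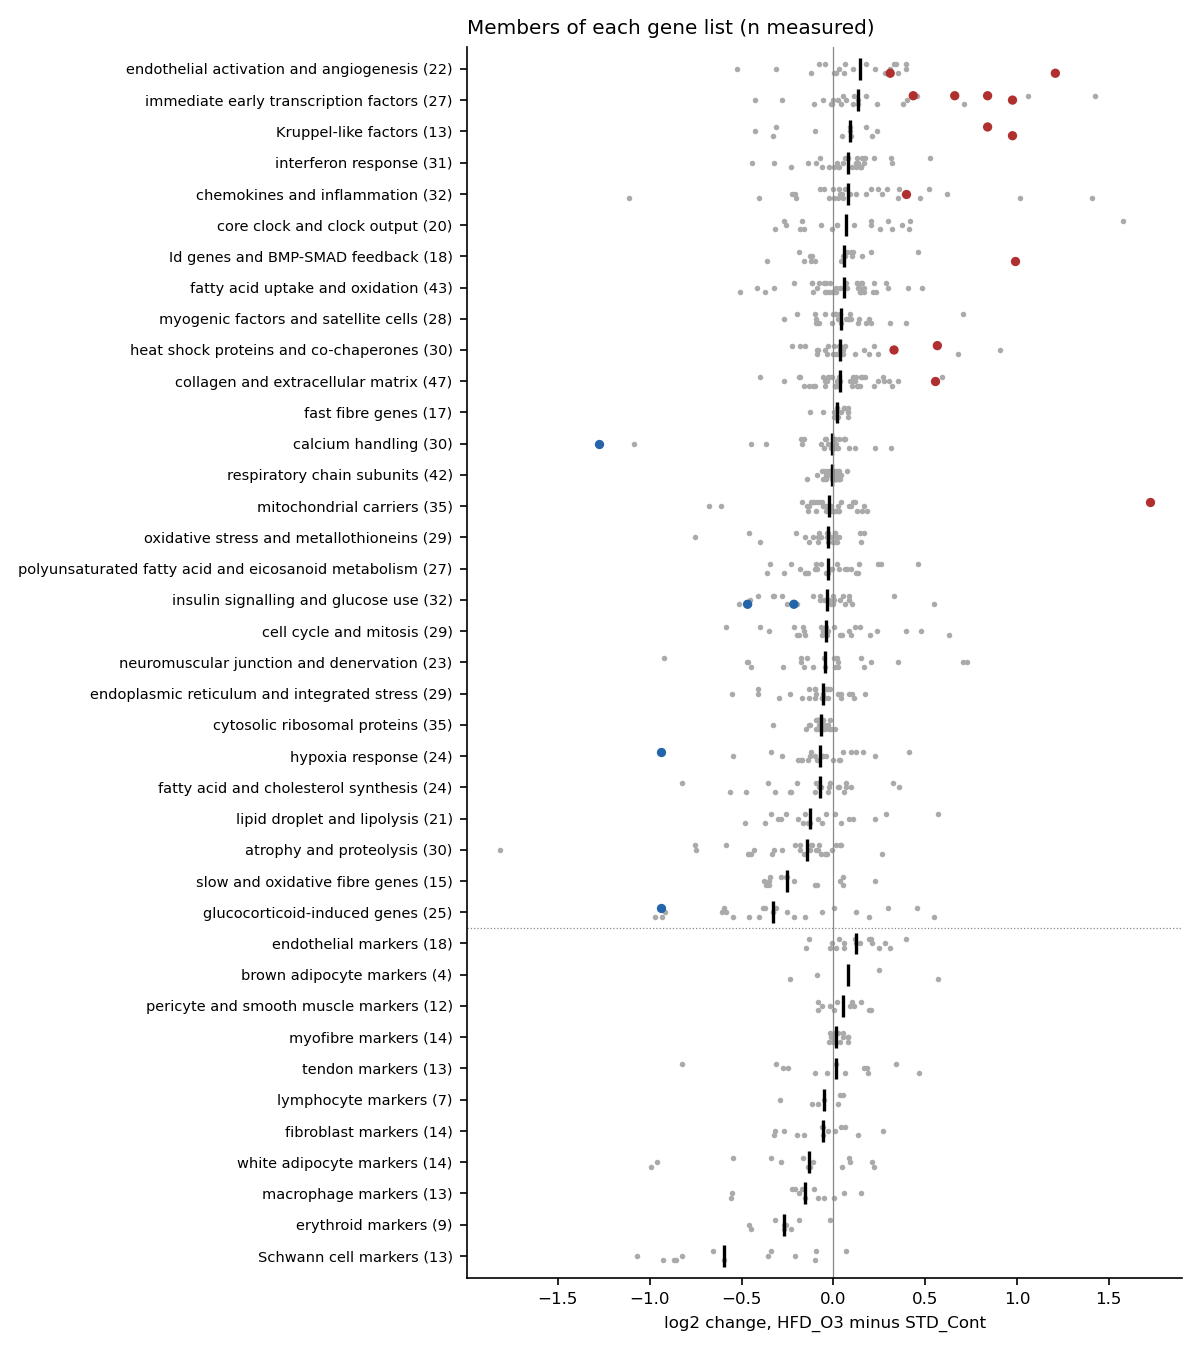
Each grey point is the log2 change of 1 list member (x axis, HFD_O3 minus STD_Cont), red and blue points passed the adjusted threshold upward and downward, and black bars are list medians, with the number measured in brackets and cell type markers below the dotted line. The calls sit in 12 of 39 lists, and most medians lie within 0.15 of 0.

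Of 42 measured respiratory chain subunits 0 passed and the median was −0.01, with Ndufs4, a complex I subunit, at −0.14 ± 0.04 (adjusted p = 0.171). Of 35 cytosolic ribosomal protein genes 0 passed, and 34 of 35 changes were below 0 at a median of −0.07. That offset is to be read beside the median of all names, which was −0.02 here and 0.01 when arrays were scaled to their median instead. By slide the median of the ribosomal list was −0.18, −0.02 and −0.01, furthest from 0 on slide 1. Of 29 measured genes of endoplasmic reticulum and integrated stress 0 passed (median −0.06), and of 29 of oxidative stress and metallothioneins 0 passed (median −0.03).

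Among 20 measured clock genes 0 passed. Ciart, a clock repressor, had a change of 1.58 ± 0.41 (adjusted p = 0.0799) with 6 of 8 HFD_O3 and 3 of 8 STD_Cont arrays above background, Clock one of −0.26 ± 0.07 (adjusted p = 0.113) and Arntl, the partner of Clock, one of −0.32 ± 0.11. The sources used here do not state the hour of tissue collection. Of 32 measured chemokine and inflammation genes 1 rose, Nod2, an intracellular sensor of bacterial wall fragments, by 0.39 ± 0.08 (adjusted p = 0.0267). Vcam1, a cell adhesion molecule, had 0.40 ± 0.09 (adjusted p = 0.053), and Ccl2, a monocyte chemokine, 1.41 ± 0.40 (adjusted p = 0.12). Of 31 interferon-response genes 0 passed (median 0.08).

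Cell cycle (29 measured), neuromuscular junction (23 measured) and myogenic factor lists (28 measured) had 0 calls. Ccnd2, a cyclin of the G1 phase, is the exception in its separation: it ran from 2.07 to 3.05 in HFD_O3 and from 1.71 to 2.03 in STD_Cont, without overlap, but its change of 0.48 ± 0.12 did not pass (adjusted p = 0.0661). Myog, the myogenic factor myogenin, had 0.71 ± 0.20 (adjusted p = 0.11), and Ccnd1 had 0.63 ± 0.21 (adjusted p = 0.198), which was −0.34 on slide 3.

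The tissue label was met by its markers. All 14 myofibre markers were above background on all 16 arrays, 0 passed and their median change was 0.02, with Acta1, Ckm and Mylpf at 0.00, −0.01 and 0.00. Fast fibre genes (17 measured) and slow fibre genes (15 measured) had 0 calls. The mean level of the slow list ran from −0.57 to 0.37 in HFD_O3 and from −0.51 to 1.27 in STD_Cont, and its median change was 0.47, 0.24 and −1.28 by slide. Myh7, the slow myosin heavy chain, ran from 6.21 to 7.69 against 6.34 to 8.73.

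Markers of other cell types did not pass in either direction, but some spread widely. The mean level of 14 white adipocyte markers ran from −1.30 to 1.64 in HFD_O3 (median −0.79) and from −1.35 to 1.31 in STD_Cont (median −0.29), and the median change of that list by slide was −2.69, 0.73 and −0.12. The 13 Schwann cell markers had the lowest list median, −0.60, with 12 of 13 below 0. Their mean level ran from −0.58 to −0.04 in HFD_O3 and from −0.65 to 1.08 in STD_Cont. Macrophage markers (13 measured, median −0.16), erythroid markers (9 measured, median −0.27) and fibroblast markers (14 measured, median −0.06) had 0 calls on all arrays.

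A direct comparison of HFD_O3 with HFD_Cont tests whether the lineages differ under the same diet, and it shares the HFD_O3 arrays with the comparison above. No name passed by limma (0 of 19921, 0.0%), with a smallest adjusted p of 0.188 and 1411 names (7.08%) at an unadjusted p under 0.05. The comparison of HFD_Cont with STD_Cont shares the STD_Cont arrays and called 581 names (2.92%). Among the 119 names, the HFD_Cont mean lay on the HFD_O3 side of the STD_Cont mean in 81 of 81 rises and 38 of 38 falls. The HFD_Cont mean was nearer to HFD_O3 than to STD_Cont in 60 of 81 rises and 34 of 38 falls. Since the STD_Cont arrays are shared, and the same shares over all names were not counted, these counts are a description. In the direct comparison 26 of 81 rises and 7 of 38 falls had an unadjusted p under 0.05 (limma), beside 7.08% of all names. The HFD_O3 arrays are shared there, so this too is a description. Dnajb1 had the smallest p of the direct comparison among the named genes. It changed by 0.57 ± 0.09 in HFD_O3 and by 0.06 in HFD_Cont against STD_Cont (adjusted p = 0.816), and by 0.50 ± 0.09 in the direct comparison (adjusted p = 0.188).

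Others of the named genes stood further from STD_Cont in HFD_O3 than in HFD_Cont without a difference that passed. Klf2 had 0.98 in HFD_O3 and 0.21 in HFD_Cont, with 0.77 ± 0.16 between them (adjusted p = 0.341). Apold1 had 1.21 and 0.29, with 0.92 ± 0.22 (adjusted p = 0.352), and Cacna2d4 −1.27 and −0.16, with −1.11 ± 0.25 (adjusted p = 0.341). Aldoc had −0.47 and −0.05, with −0.41 ± 0.09 (adjusted p = 0.341), and Nod2 0.39 and 0.03, with 0.37 ± 0.08 (adjusted p = 0.341).

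A further set had near-equal values in both high fat groups. Nr4a1 had 0.66 in HFD_O3 and 0.65 in HFD_Cont, Nos3 0.31 and 0.31, Cnn2 0.56 and 0.53, and Slc39a10 0.43 and 0.42. Whether these values are equal was not tested. Hif3a and the glucocorticoid-induced list stood further from STD_Cont in HFD_Cont instead. Hif3a had −0.94 in HFD_O3 and −1.39 in HFD_Cont, with 0.45 ± 0.18 between them (limma, adjusted p = 0.65). The list had medians of −0.33 in HFD_O3 and −0.54 in HFD_Cont. A p that misses the threshold does not show that the lineages are alike.

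Among the 119 names, 29 had more than 1 kept probe, with 40 further probes between them. Of these, 33 had the same sign as the probe that stood for the gene and 7 passed on their own. Slc25a25, Avil, Coq10b, Cacna2d4 and Neto2 were the genes whose other probes passed. The second probes of Slc39a10, Galnt15, Mgst1 and Msrb1 gave 0.58, −0.73, −0.43 and −0.33. They had the sign of the first probe but did not pass (limma, adjusted p = 0.239, 0.107, 0.0652 and 0.0847). A further 7 names had a probe of the opposite sign, among them Slbp.

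The number of calls rested on which arrays were kept. With 1 array left out it ran from 68 to 343. It fell by over 1.5 times without HFD_O3 array 1 (74), 4 (70) or 6 (68) and without STD_Cont array 1 (69), 2 (71), 3 (68) or 8 (73), and grew as much without HFD_O3 array 7 (343) or 8 (201). When the 7 arrays with an adipocyte marker score over 0.5 were left out, 0 names passed by limma, with 1713 at an unadjusted p under 0.05 and a smallest adjusted p of 0.0666. This removal, tried after seeing the data, left 6 HFD_O3 and 6 STD_Cont arrays. The changes of the 119 names then were between 0.716 and 1.29 times their size on all arrays, with Klf2 at 0.91 (adjusted p = 0.0906), Slc25a25 at 1.56 (adjusted p = 0.163) and Cacna2d4 at −1.38 (adjusted p = 0.0666). With the score as a covariate 125 names passed, among them 106 of the 119. Each slide alone called 0 names, with 1162, 2441 and 1284 at an unadjusted p under 0.05. A fit that blocked on slide together with array row had 47 calls, 38 of them among the 119. Klf2, Apold1, Id1, Bcl6b, Nr4a1 and Nos3 missed the threshold there (limma, adjusted p = 0.0595, 0.0597, 0.0578, 0.0578, 0.0595 and 0.0787), while Klf4, Fosl2 and Slc25a25 passed. The change of Klf2 was then 0.79 and that of Apold1 0.99. A fit of only the HFD_O3 and STD_Cont arrays kept Klf2, Klf4, Apold1 and Bcl6b but not Nr4a1, Id1, Nos3 or Fosl2 (limma, adjusted p = 0.0883, 0.0518, 0.0587 and 0.102).

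**Figure D5:**
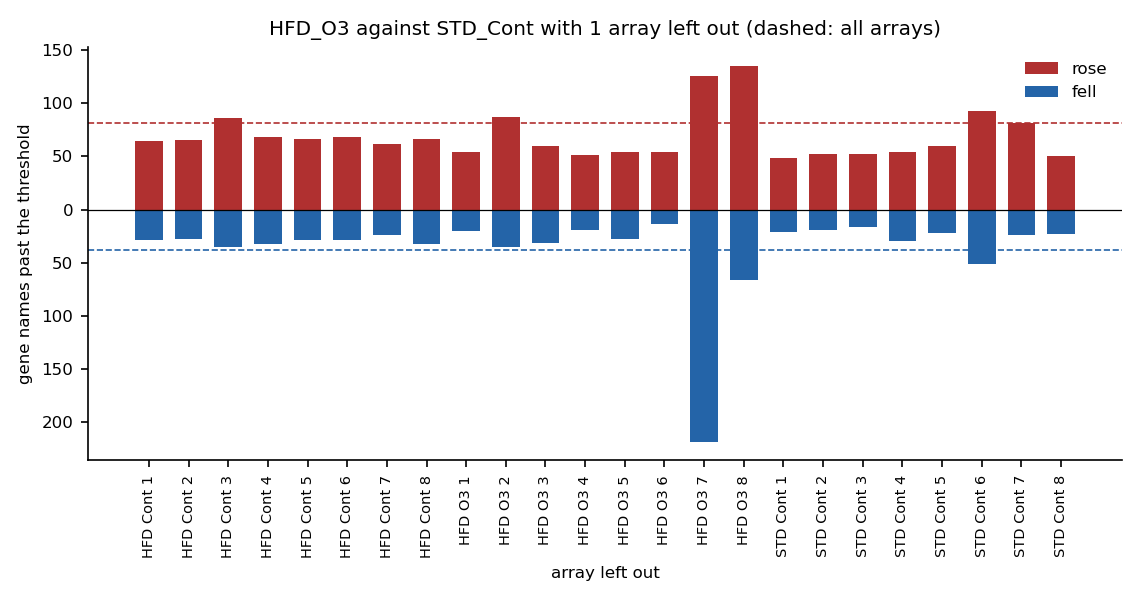
Gene names that rose (red, upward) and fell (blue, downward) at an adjusted p under 0.05 in HFD_O3 against STD_Cont when the array on the x axis was left out, with dashed lines at the counts on all arrays, 81 and 38. Without HFD_O3 array 7 the bars reach 125 and 218.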

How the data were processed

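Total RNA of mouse skeletal muscle was hybridised to 24 one-colour Agilent arrays, 8 per group. The intensity values are the processed signals of the deposited scanner files, background-subtracted with Agilent Feature Extraction 10.10.1.1 per the file headers. The authors' deposited value table holds log2 values, per the submitters' processing notes made with limma, and was used as an alternative. Here each array was scaled as log2 intensity minus the 75th percentile over non-control probes. Probes were kept if well above background on at least 6 of 8 arrays of a group (29246 of 56605 non-control probes), and the brightest kept probe stood for each of 19921 gene names. Accessions of 33895 probes were named through the RefSeq table.

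A single limma model (version 3.58.1, R 4.3.3) with moderated two-sided tests covered all 24 arrays. P-values were adjusted by Benjamini-Hochberg across every name tested, and the threshold was 0.05. The scripts were tested on simulated data. The members, gene lists and tests were chosen with earlier results of these data known. Named are the 15 largest rises and falls with a plain symbol, up to 4 called members of each list or the 2 of smallest p where none was called, and the 5 names of smallest p in each direction; other genes were chosen after their values were seen. A called gene that this rule names is not reported here. Alternatives changed the scaling, background correction, filter, probe choice, blocks, covariates and arrays. The number of arrays limits the precision. Between 52.0% and 60.7% of spots were above background on the 16 arrays compared, and 0 spots were saturated. The deviations of same-numbered arrays correlated between −0.10 and 0.16, so the numbers were not taken as pairs.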

Additional observations from a re-analysis of the deposited data

Results flagged for a closer look

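In 17 of 216 groups of 8 arrays, 1 array stood apart by Dixon's gap ratio, at its critical value. Chance flags about 1 in 20 groups. Among the HFD_O3 arrays, Dnaja1 stood high on array 7 at 4.48, Myl6b stood apart on array 3 at 2.75 and Gpd1 on array 1 at 7.23.

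Among the STD_Cont arrays, Slc25a25 stood high on array 5 at 2.22, Tnfrsf25 on array 7 at −0.39, Neto2 on array 2 at 1.90 and Scd2 on array 4 at 2.23. Chrnb1 stood apart on array 2 at −0.32, Myl3 on array 4 at 9.34 and Myoz1 on array 7 at 8.82.

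Among the HFD_Cont arrays, array 3 stood apart for 4 genes: Tcim at 2.37, Kcnab1 at −0.37, Dnajb1 at 2.73 and Decr1 at 6.96. Array 5 stood apart for Slc39a10 at −1.41 and for Fosl2 at 0.64, and array 4 for Chrnb1 at −0.78.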

How the results depend on the processing

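No named gene past the threshold changed sign under the alternatives run. Of the 72 named genes, 6 that did not pass had the opposite sign on slide 3 alone, among them Ccnd1, Foxo1, Plin4 and Hmox1, 2 on slide 2, 1 on slide 1, and 1 each with the deposited table and the mean of probes. Of 39 list medians, 14 had the opposite sign on slide 3, 8 on slide 2, 6 on slide 1 and 8 without arrays of high adipocyte score, and at most 5 under any other setting. Against 119 names on all arrays (81 higher, 38 lower), median scaling gave 62 (49 and 13), no filter on dim probes 46 (40 and 6), fitting only HFD_O3 and STD_Cont arrays 36 (31 and 5), and slide with array row as a block 47 (32 and 15). The falls alone moved to 23 with normexp background correction and to 23 with slide as a block. Each slide alone called 0, and so did the fit without arrays of adipocyte score over 0.5, an alternative added after seeing the data. Leaving out HFD_O3 arrays 1 and 7 gave 174 (75 and 99). The cause of these shifts was not tested.

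Leaving out each array in turn gave 68 to 343 calls, 48 to 135 higher and 14 to 218 lower, and 0 to 1 in HFD_O3 against HFD_Cont. The removals that moved the total by over 1.5 times were those of HFD_O3 arrays 1 (74), 4 (70), 6 (68), 7 (343) and 8 (201), and STD_Cont arrays 1 (69), 2 (71), 3 (68) and 8 (73). With the replicate block 89 names were called (62 and 27), and array numbers were best matched by their own number in 2 of 8 cases, so they share only a number. Signal over background limits Cd27 (above background on 4 of 8 HFD_O3 arrays and 5 of 8 HFD_Cont arrays), C2cd4a (5 of 8 STD_Cont arrays) and Ciart (6 of 8 HFD_O3 and 3 of 8 STD_Cont arrays), and Hif3a was above it on 7 of 8 HFD_Cont arrays. Cd27 met the filter only in STD_Cont, and C2cd4a and Ciart met it only in the high fat groups.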
